A study of Drosophila melanogaster with 8 samples.

Results

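Storage hexamerins and the lipoproteins of the haemolymph are 2 kinds of protein that the insect fat body, the counterpart of liver and adipose tissue, releases into the blood. The genes examined were 9 named ones, found in the table by gene symbol: the hexamerins Lsp2, Lsp1alpha, Lsp1beta and Lsp1gamma, the hexamerin receptor Fbp1, the lipoprotein genes apolpp, Apoltp and Mtp, and the lipoprotein receptor LpR2. Of these, 6 had a probe set of their own in the platform annotation, 1 probe set each, among 11982 genes in all. Lsp1alpha, Lsp1beta and Lsp1gamma had none and were not measured.

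Expression was measured on Affymetrix Drosophila Genome 2.0 arrays, on which sets of short oligonucleotide probes report the level of a transcript, in heads of wild-type Canton-S females. Flies of both groups were placed at 12.5 °C shortly after emergence and kept there for 12 days. The labels give the long day as 16 h of light and 8 h of dark and the short day as 10 h of light and 14 h of dark, whereas the methods of the study give a shorter light phase for the short day. Heads were taken 4 h after lights-on by the labels, and 4 to 6 h after lights-on by the methods of the study. Each day length had 4 numbered samples, and because no source says whether these were separate cultures, the p-values measure a spread that may be partly technical.

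Hexamerins are large proteins built of 6 subunits, related to the oxygen carriers of other arthropods and to the phenoloxidases, and they serve as a store of amino acids. The larval fat body secretes them in bulk and later takes them back up through the receptor encoded by Fbp1. Lipids travel through the haemolymph on lipophorin, a particle built around the protein encoded by apolpp. Mtp loads lipid onto such proteins in the endoplasmic reticulum, Apoltp encodes the backbone of a second particle that transfers lipid to lipophorin, and receptors of the low-density lipoprotein receptor family, LpR1 and LpR2, promote lipid uptake into tissues such as the ovary.

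In short day heads the storage hexamerin Lsp2 was lower, at about 0.665 of its long day level, and the abundant carrier apolpp was not called. The lipid loading genes Apoltp and Mtp had lower means in short days, without reaching the threshold of the study, an unadjusted limma p under 0.01. Under that rule 1 of the 6 measured genes was lower and none was higher, against a background of 1.69% of all genes called lower and 1.79% called higher, 3.48% in either direction. No member passed 0.05 after Benjamini-Hochberg adjustment over all probe sets in limma. At an unadjusted p under 0.05, 3 of the 6 were lower, beside 5.07% of all genes. Among the 5 members with a mean log2 value of 6 or more the median log2 difference, short day minus long day, was -0.32, against 0.02 over the 6468 genes of that brightness.

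The arrays were alike in overall level, which their quantile normalization fixes in advance. Over 9107 probe sets with a mean of 4 or more, pairs of arrays correlated with r between 0.983 and 0.996. The head label was checked against marker genes. The 6 measured photoreceptor markers had array means between 13.42 and 13.72 on the log2 scale, and none of 12 measured ovary and eggshell markers had a mean of 4 or more. The sample of short day replicate 3 stood apart, with 22 genes more than 2 log2 units above all 7 other samples, where no other sample had more than 1. The differences of the brighter members are also given without this sample.

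Lsp2 encodes larval serum protein 2, the only member of the storage hexamerins that could be measured here. Its log2 values were 14.46, 14.55, 14.53 and 14.70 in long day replicates 1 to 4, and 13.91, 13.75, 14.12 and 14.11 in short day replicates 1 to 4. All short day samples lay below all long day samples, with a gap of 0.34 between the nearest samples of the groups. Such a complete separation downwards was seen in 3.47% of all genes, and in either direction in 7.34%. The mean fell from 14.56 ± 0.10 to 13.97 ± 0.18 (SD, n = 4 each), a log2 difference of -0.59 (95% interval -0.83 to -0.35, limma adjusted p = 0.175). By unadjusted p it ranked within the first 0.626% of genes. The call at the threshold of the study was kept in all 19 alternatives, with log2 differences between -0.64 and -0.51. Without short day replicate 3 the difference was -0.64 (limma adjusted p = 0.203). Restricting the limma fit to brighter probe sets lowered the adjusted p to 0.0359 for a minimum mean of 4 and to 0.0249 for one of 6, and over all alternatives it ranged from 0.0249 to 0.711. Lsp2 is a bright transcript, and the highest value in the table was 15.52, so there is little room above it on the scale.

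**Figure D1:**
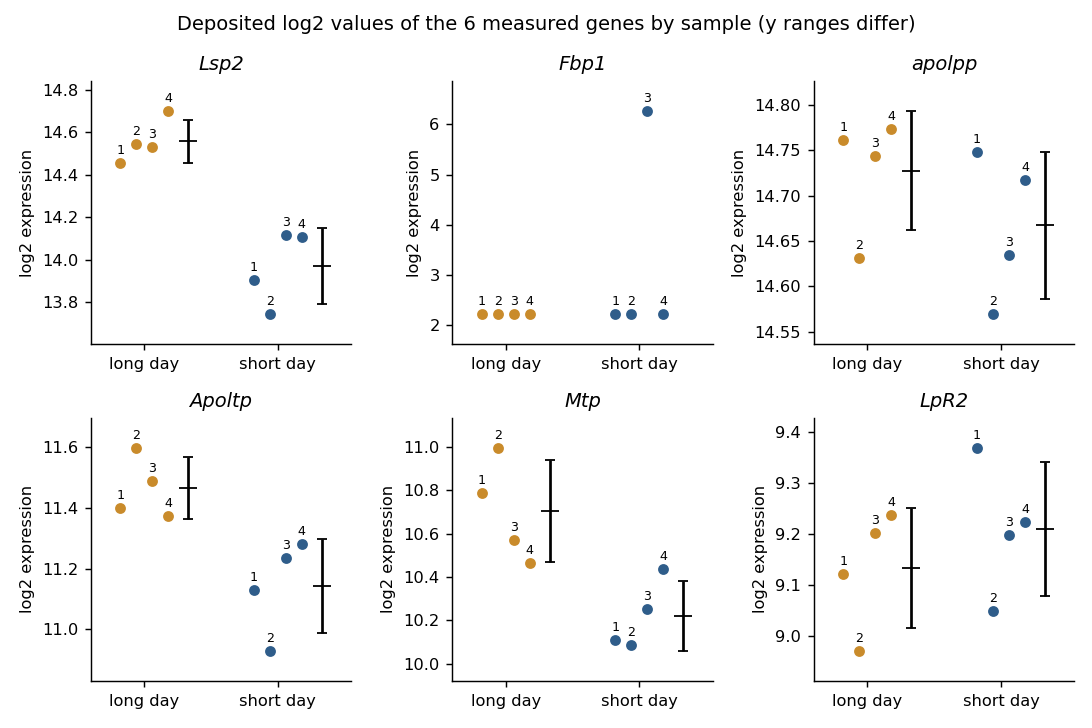
Log2 expression of the 6 measured genes in each sample, with replicate numbers beside the points and, except for Fbp1, bars for mean ± SD (n = 4 per day length). The short day points of Lsp2, Apoltp and Mtp lie below all long day points, those of apolpp and LpR2 overlap, and Fbp1 is raised in short day replicate 3 alone.

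Fbp1, fat body protein 1, is transcribed in the larval fat body under the control of ecdysone. It stood at 2.22 in 7 of the 8 samples, close to the lowest value in the table, 2.15, and at 6.26 in short day replicate 3. The other 3 short day samples were therefore at the same value as the long day samples, and no fold change is given for a gene measured in 1 sample. Fbp2, which encodes another abundant protein of the larval fat body, showed the same pattern, at 2.17 in 7 samples and 7.06 in short day replicate 3. Lsp2 was at 14.12 in that sample, the highest of the short day values, against 13.91, 13.75 and 14.11 in short day replicates 1, 2 and 4. It was still below all long day samples there.

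The 22 genes that set short day replicate 3 apart included both of these fat body proteins, Fbp2 at rank 6 and Fbp1 at rank 9 of the lead over the other samples. The largest lead was that of fln (flightin), a protein of the flight muscle, at 11.71 against at most 2.69. TpnC4, a troponin C of the flight muscle, was at 10.36 against 2.15, and Act88F, the flight muscle actin, at 13.10 against at most 8.93. TpnC4 and the cuticle gene below were named after their values were seen. Acp65Aa, a protein of the adult cuticle, was at 8.88 against at most 3.81. Cyp4g1, a cytochrome P450 of oenocytes that makes cuticular hydrocarbons, was at 9.44 against at most 5.09, and FASN3, a fatty acid synthase of oenocytes, at 5.96 against 3.31. The array mean of 7 measured thorax muscle markers was 12.33 in this sample and between 8.24 and 8.84 in the others, a mean that includes fln, TpnC4 and Act88F, in a list drawn up with earlier results known. That of 7 oenocyte markers was 3.90 against 2.36 to 2.74. The part of these other transcripts in the Fbp1 value was not tested.

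**Figure D2:**
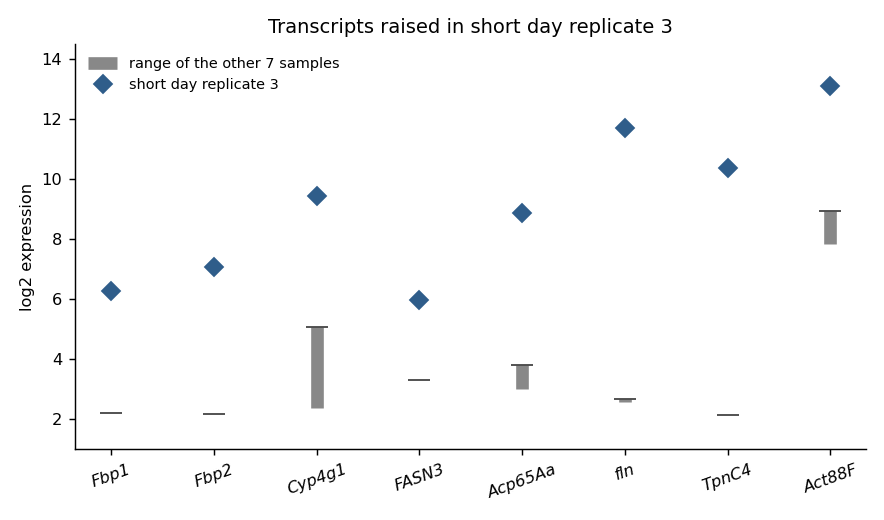
Log2 expression of 8 transcripts in short day replicate 3 (diamonds) and the range over the other 7 samples (grey bars, upper end marked). Fbp1 and Fbp2 lie near the lowest value of the table in the other samples and at 6.26 and 7.06 in this one.

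In the list of hexamerins, larval fat body proteins and phenoloxidases, Lsp2 was the only gene called of 6 measured among 9. Of all genes, 3.48% were called in either direction. PPO1 and PPO2 encode prophenoloxidases, the enzymes of melanisation carried by crystal cells. PPO1 differed by -0.14 (95% interval -0.97 to 0.70) and PPO2 by 0.03 (95% interval -0.53 to 0.58), and the interval of PPO1 includes the difference seen in Lsp2. PPO3 stood at 2.15 in all samples. The median log2 difference over the 6 measured genes was 0.01, a value that includes Fbp1, Fbp2 and PPO3, near the lowest value in most samples. Over the 3 genes with a mean of 4 or more it was -0.14.

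The carrier protein gene apolpp was among the brightest transcripts of the set. Its log2 values were 14.76, 14.63, 14.74 and 14.77 in long days and 14.75, 14.57, 14.63 and 14.72 in short days. The groups overlapped, with replicate 2 the lowest sample of each. The means were 14.73 ± 0.07 and 14.67 ± 0.08, and the difference was -0.06 (95% interval -0.18 to 0.06, limma adjusted p = 0.830). It was called in none of 19 alternatives, and the difference was -0.05 without short day replicate 3. Because both genes lie near the top of the scale, the 2 were compared within each array. The log2 value of Lsp2 minus that of apolpp was -0.17 ± 0.11 in long days and -0.70 ± 0.16 in short days, a difference of -0.53, and all short day samples lay below all long day samples. The exact permutation test, two-sided, gave p = 0.0286, the smallest that 4 against 4 samples allow, and an adjusted p = 0.0429 over the 3 contrasts run. All apolpp values lay between 14.57 and 14.77, a narrower span than the gap of 0.34 between the Lsp2 groups. The separation and this p therefore followed from the values already given and are no further support for the Lsp2 result. Without short day replicate 3 the difference in Lsp2 minus apolpp was -0.59.

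Apoltp, the backbone of the lipid transfer particle, was read at 11.40, 11.60, 11.49 and 11.37 in long days and at 11.13, 10.93, 11.23 and 11.28 in short days. All short day samples were below all long day samples, with a gap of 0.09. The mean went from 11.47 ± 0.10 to 11.14 ± 0.16, a log2 difference of -0.32 (95% interval -0.54 to -0.10, ratio 0.800, limma adjusted p = 0.376). This missed the threshold narrowly and reached it in 6 of 19 alternatives. Without short day replicate 3 the difference was -0.35 (limma adjusted p = 0.390). Relative to apolpp within each array the difference was -0.26, and the exact permutation p of 0.0571 did not pass. With 1 sample left out in turn, that exact permutation p lay between 0.0286, without long day replicate 4, and 0.143, without long day replicate 2, short day replicate 1 or short day replicate 2.

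Mtp, the microsomal triglyceride transfer protein, was read at 10.79, 10.99, 10.57 and 10.46 in long days and at 10.11, 10.09, 10.25 and 10.44 in short days. The groups did not overlap, but the nearest samples, long day replicate 4 and short day replicate 4, were only 0.03 apart. The mean went from 10.70 ± 0.24 to 10.22 ± 0.16, a log2 difference of -0.48 (95% interval -0.82 to -0.15, ratio 0.716, limma adjusted p = 0.388). The threshold was reached in 7 of 19 alternatives, among them the fits without long day replicate 4 (log2 difference -0.56) and without short day replicate 4 (-0.55). Without short day replicate 3 the difference was -0.49 (limma adjusted p = 0.439). With Lsp2 and Apoltp, Mtp made 3 of the 6 measured genes whose short day values all lay below the long day ones, beside the 3.47% of all genes given above.

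**Figure D3:**
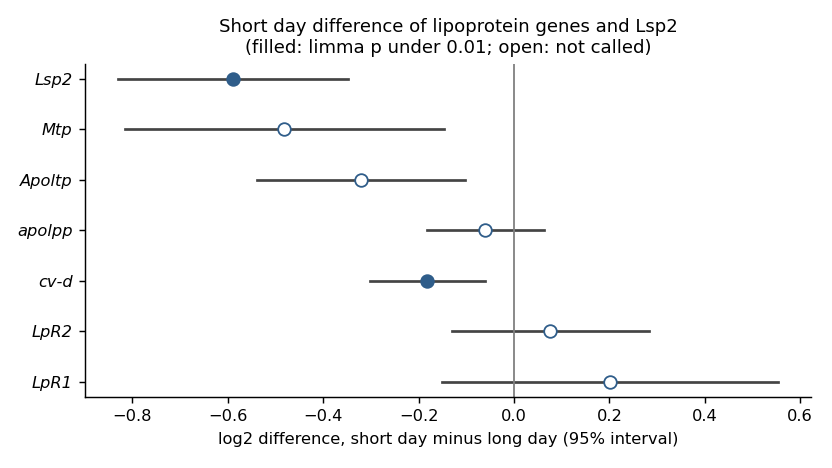
Log2 differences, short day minus long day, with 95% intervals from limma (n = 4 per day length), for Lsp2, the lipoprotein genes, their receptors and cv-d, a related lipoprotein gene. Filled points are called at an unadjusted p under 0.01 and open points are not. The intervals of Mtp and Apoltp exclude 0 although both missed the call, and those of apolpp, LpR2 and LpR1 include it.

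The receptor LpR2 was read at 9.12, 8.97, 9.20 and 9.24 in long days and at 9.37, 9.05, 9.20 and 9.22 in short days. The groups overlapped throughout. Its mean was 9.13 ± 0.12 in long days and 9.21 ± 0.13 in short days, with a difference of 0.08 (95% interval -0.13 to 0.28, limma adjusted p = 0.851). It was also 0.08 without short day replicate 3. The probe set bears the suffix that the maker gives to sets shared by several transcripts of 1 gene, so isoforms of LpR2 could not be told apart. Within each array LpR2 minus apolpp was higher in short days by 0.14 (exact permutation p = 0.0286, adjusted p = 0.0429). This small contrast did not hold after a second quantile normalization (difference 0.072, exact permutation p = 0.257), nor without long day replicate 1 or 2 (exact permutation p = 0.0571 each) or short day replicate 1 or 3 (0.0857 and 0.0571). The neighbouring gene LpR1, the related receptor, differed by 0.20 (95% interval -0.15 to 0.55, limma adjusted p = 0.830). Without short day replicate 3 it was 0.31 (limma adjusted p = 0.520).

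Among themselves the members moved in different ways across samples. In short days, replicate 2 was the lowest sample of Lsp2, apolpp, Apoltp, Mtp and LpR2 alike, and Apoltp and Mtp ranked the 4 short day samples in the same order. In long days replicate 4 was the highest sample of Lsp2, apolpp and LpR2 and the lowest of Apoltp and Mtp. Replicate 2 was the highest long day sample of Apoltp and Mtp and the lowest of apolpp and LpR2. Long day replicates 2 and 4 thus lay at opposite ends for the lipid loading pair and for apolpp and LpR2.

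**Figure D4:**
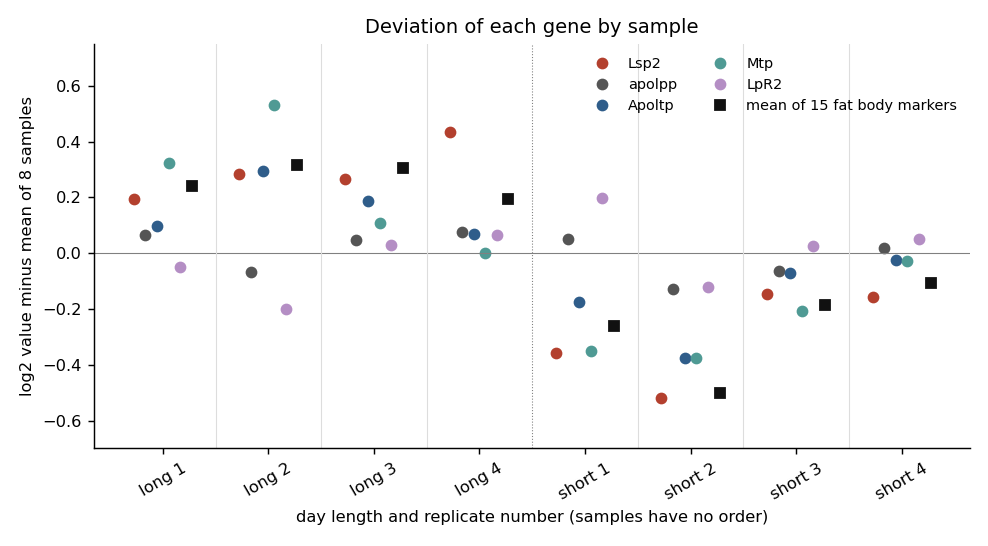
Log2 value of each gene minus its mean over the 8 samples, for the 5 members of mean 6 or more and for the mean of 15 fat body markers (squares). Lsp2 and the fat body markers lie above 0 in all long day samples and below 0 in all short day samples, while apolpp lies between -0.13 and 0.08.

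The genes whose pattern over the 8 samples was most like that of each member were found among 6467 genes of mean 6 or more, with Pearson's r as the measure. These are descriptions, and each r includes the difference between day lengths and shared features of the arrays. For Lsp2 they were CG10680 (r = 0.985), CG5114 (r = 0.981) and l(1)G0004 (r = 0.978). For Mtp they were Oat, ornithine aminotransferase (r = 0.980), Hsc70-3, the chaperone BiP of the endoplasmic reticulum (r = 0.977), and vig2 (r = 0.967). Apoltp was most like Mthfs, an enzyme of folate metabolism (r = 0.989), Nepl13, of the neprilysin family (r = 0.985), and CRAT, carnitine acetyltransferase (r = 0.981). For apolpp, Hydr1, CG3961 and path, an amino acid transporter, gave r between 0.911 and 0.934. LpR2 was followed by Tsp66E, a tetraspanin (r = 0.968), dx (r = 0.905) and zfh2 (r = 0.899).

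In the family of large lipid transfer proteins and lipoprotein receptors, 8 of 11 listed genes were measured, 1 was called lower and none higher. The share called lower over all genes was 1.69%. The called gene was cv-d, which encodes a vitellogenin-like lipoprotein known from signalling in the pupal wing. It fell from 10.29 ± 0.10 to 10.11 ± 0.04, a log2 difference of -0.18 (limma adjusted p = 0.360). Of 19 alternatives, 13 did not call it, that without short day replicate 3 included. The receptor gene cue differed by -0.02 (95% interval -0.13 to 0.10), and yl, the yolk protein receptor of the oocyte, stood at 2.17 in all samples. Over the 8 measured genes the median log2 difference was -0.04, and over the 7 with a mean of 4 or more it was -0.06.

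Of 34 genes for lipid uptake, lipid binding and lipases, 31 were measured, 3 were called lower and none higher. The shares of all genes were 1.69% called lower and 1.79% called higher. The median log2 difference over the 31 was 0, as over all genes, but both medians include transcripts near the lowest value in the table. Over the 20 listed genes with a mean of 4 or more it was -0.07. Npc2g, of a family of sterol-binding proteins, fell from 11.87 ± 0.24 to 10.97 ± 0.38, a ratio of 0.538. Lip4, a lipase, fell to 0.715 and pes, a scavenger receptor of the CD36 family, to 0.860 of the long day level, the latter on a probe set that the maker marks as shared between sequences. Their limma adjusted p-values were between 0.307 and 0.357. Without short day replicate 3 the log2 differences were -1.02 for Npc2g, which was still called, and -0.43 for Lip4 and -0.22 for pes, which were not. The list then had 1 gene called lower and 1 higher, and without long day replicate 1 or long day replicate 3 it had none lower.

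No gene was called among 14 measured regulators of fat body proteins, nor among 14 measured genes of protein folding and export from the endoplasmic reticulum. Kr-h1, a target of juvenile hormone signalling, differed by -0.20 (95% interval -0.41 to 0.02), and the juvenile hormone receptors Met and gce by 0.13 and 0.21. The GATA factor srp (serpent) differed by -0.16 (95% interval -0.57 to 0.25). In the export list 11 of 14 genes had lower means in short days, with a median log2 difference of -0.06. These include Pdi, at 2.15 in both groups, near the lowest value in the table. Over the 13 genes with a mean of 4 or more the median was -0.07. The gene of this list with the smallest p was Hsc70-3, at -0.23 (limma adjusted p = 0.445). Without long day replicate 4, 2 genes of this list were called lower.

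The members were set beside other transcripts of the fat body. Of 18 fat body markers, a list drawn up with earlier results of these data known, 16 were measured, 10 were called lower and none higher. Of all genes, 1.69% were called lower and 1.79% higher. The limma adjusted p-values of the 10 lay between 0.171 and 0.336. Over the 16 the median log2 difference was -0.54, against 0 over all genes and 0.02 over genes with a mean of 6 or more. The count called lower was also 10 without short day replicate 3. It was 5 without long day replicate 2 and short day replicate 3 together, and 1 with the replicate number as a block. Leaving out Fbp2, the mean log2 value of the remaining 15 lay between 13.03 and 13.15 in long day samples and between 12.34 and 12.73 in short day samples, lowest in short day replicate 2, as for Lsp2. The Lsp2 difference of -0.59 was of the size seen in AkhR, the receptor of adipokinetic hormone (-0.57), Obp99b (-0.51) and Yp2, a yolk protein (-0.68), and smaller than those of fit, a satiety peptide of females (-1.67), and Lsd-1, a perilipin of lipid droplets (-0.99).

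Other transcripts of this tissue resembled apolpp in showing no call and an interval that includes 0, srp, given above, among them. The intervals of srp, bmm and Desat1 were wider than that of apolpp. Tsf1, transferrin, also a secreted haemolymph protein, was at 14.32 ± 0.08 in long days and 14.29 ± 0.09 in short days (difference -0.03, 95% interval -0.17 to 0.11). FASN1, a fatty acid synthase, differed by 0.04 (95% interval -0.09 to 0.16). For bmm, the lipase brummer, the difference was 0.12 (95% interval -0.07 to 0.32), and for Desat1, a fatty acid desaturase, -0.07 (95% interval -0.27 to 0.14). In whole heads fewer fat body cells and less RNA per cell cannot be told apart. The part of fat body content in the Lsp2 result was not tested. Among markers of other cell types in the head, 1 of 9 neuronal genes was called higher (Snap25, by 0.26) and 1 of 8 glial genes lower (CG6126). Of all genes, 1.79% were called higher and 1.69% lower. None of 11 haemocyte genes was called, with haemocyte array means of 7.98 to 8.50 in long days and 8.17 to 8.54 in short days. All 9 neuronal genes had higher means in short days, with a median log2 difference of 0.21, as did 9 of the 11 haemocyte genes, with a median of 0.19. Of the 7 thorax muscle genes all had higher means, which for fln and TpnC4 came from short day replicate 3 alone. Of the 7, 1 was called higher, the tropomyosin gene Tm2 (0.47), which was not called without short day replicate 3. The part of these other cell types in the results on the members was not tested.

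**Figure D5:**
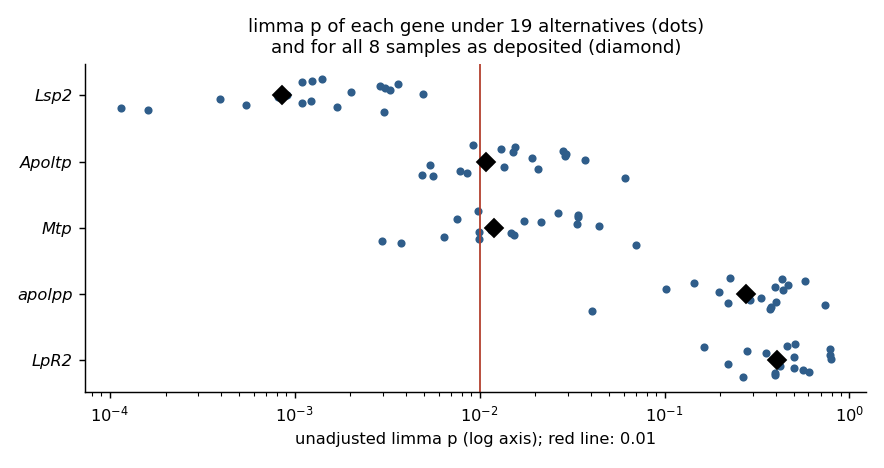
Unadjusted limma p (log axis) of 5 members with all 8 samples as deposited (diamonds) and under 19 alternatives each (dots), with the threshold of 0.01 as a line. All points of Lsp2 lie left of the line, those of Apoltp and Mtp fall on both sides, and those of apolpp and LpR2 lie right of it.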

How the data were processed

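The values deposited by the authors are on the log2 scale, 1 per probe set and array. According to the submitters' processing notes they come from GCRMA (version: not given in the sources used here). GCRMA quantile-normalizes the arrays, which hides a change in total mRNA and can compress the brightest probe sets. The table holds 18952 probe sets in 8 columns. After 183 control probe sets were set aside, 18769 were fitted with limma 3.58.1 in R 4.3.3 (two-sided, eBayes defaults, no block), and each of 11982 genes was represented by its brightest probe set annotated to 1 gene. Of 13647 such probe sets 13544 were found by Entrez number in the RefSeq table of Drosophila Release 6, and no symbol changed. Precision is limited by 4 arrays per group.

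All members were named, with the called genes and up to 4 of smallest p of each list and the 3 genes most like each member. Members and lists were chosen with earlier results of these data known. The 3 contrasts between members used exact permutation. Other settings tried were the replicate number as a block, minimum means of 4 and 6, a second quantile normalization, median centring, other variance models and weights, averaged probe sets, a floor of 3 and arrays left out. No scan date was used here, so no batch was tested. A planned motif search in promoters was not run, because no sequence was used here. The fits were also run on simulated data, with shifts added to some probe sets and independent noise in each. That setting holds no array that stands apart and no genes that move together, so it does not test the results above.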

Additional observations from a re-analysis of the deposited data

Results flagged for a closer look

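For 24 genes, the 6 members among them, each day length was searched for a sample far from its group. Of 48 groups 3 were picked out. For normally spread values chance gives about 1 in 20, a rate that does not apply to Fbp1, at the same value in 7 samples. Its long day group had no spread and could not be picked out. For Fbp1 in short days the gap of replicate 3, at 6.26 against 2.22 in the other samples, made up the whole range (ratio 1). For Jabba, a lipid droplet protein, short day replicate 2 lay lowest at 9.78, with 10.29 next (ratio of gap to range 0.85). For Pepck1, of gluconeogenesis, long day replicate 3 lay highest at 13.83, with 13.57 next (ratio 0.904).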

How the results depend on the processing

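Across 24 genes with a tested difference, none took the opposite sign in 454 comparisons with an alternative. Part of this was fixed in advance, because the replicate block, the filters and the variance models leave the log2 difference unchanged. Apart from the members and LpR1, the genes were chosen because they were called with all 8 samples as deposited. The difference of Fbp1 became 0 without short day replicate 3. Lsp2 kept its call in all 19, and no member was called higher in any. The call of Apoltp was gained with a filter at a mean of 4 or 6 (log2 difference -0.32 in each), a second quantile normalization (-0.35), median centring (-0.34) and array weights (-0.29), and, leaving out 1 sample in turn, its difference ranged from -0.37 to -0.25. That of Mtp was gained with the same filters (-0.48), second normalization (-0.52), median centring (-0.50) and array weights (-0.43), with a range of -0.56 to -0.39 when samples were left out. The number of members called lower was 3 instead of 1 in those 5 settings, and from 1 to 3 with a sample left out. Genes called in all numbered 523, 504, 441, 588 and 566 in these settings, in the order above, against 417 of 11982. The 2 filters cover fewer genes, 6468 for that at 6, so their share called is higher than the counts alone show. Leaving out 1 sample in turn, the within-array contrast of Lsp2 and apolpp ranged from -0.59 to -0.48, that of Apoltp and apolpp from -0.31 to -0.19 and that of LpR2 and apolpp from 0.11 to 0.16. After the second normalization the latter 2 were -0.33 (p = 0.0286, exact permutation) and 0.072.

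Samples that share a replicate number share nothing more that the labels state, and their deviations correlated at 0.01, -0.23, -0.14 and 0.17 for numbers 1 to 4. With the replicate number as a block Lsp2 kept its call (limma adjusted p = 0.489), Apoltp and Mtp had an unadjusted p above 0.05, 238 instead of 417 genes were called, and 1 instead of 10 fat body markers. Without long day replicate 2 and short day replicate 3 together, 5 of these markers were called. The mean of same-numbered differences equals the difference of group means, so the contrasts were by construction again -0.53 for Lsp2 and 0.14 for LpR2. Exact sign flips of 4 pairs allow no p below 0.125. Genes called numbered 144 with a trend and robust variance model, 274 when either long day replicate 3 or short day replicate 1 was left out.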
